A study of Mus musculus with 12 samples.

Results

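Txnip, the arrestin-domain genes Arrdc1, Arrdc2, Arrdc3 and Arrdc4, the thioredoxin genes Txn1 and Txnrd1, and the glucose-responsive transcription factor genes Mlxip and Mlxipl were followed in N2A mouse neuroblastoma cells. These 9 genes, of 19938 with a probe set of their own, were selected by exact gene symbol. Each had 1 probe set, so no measured value was needed to choose between probe sets, although the genes themselves were picked with earlier results of these arrays in view and their changes are given as a description of these cells. Control cells carried a scrambled short hairpin RNA. Knockdown (KD) cells carried a stable hairpin against Dali, a long non-coding RNA transcribed near the transcription factor gene Pou3f3. RNA was taken from cells growing in 10% serum, or after 72 h in 2% serum with 20 µM all-trans retinoic acid (RA), a vitamin A derivative that drives neuroblastoma cells to differentiate. The serum reduction therefore accompanied RA in every RA sample, and their effects cannot be told apart. Each of the 4 groups had 3 arrays. All of the cells had been co-transfected with a hygromycin resistance plasmid and grown out as single drug-resistant clones. The arrays of a group are described as biological replicates, but whether they came from separate clones is not stated, so p-values measure the spread between these samples, and the difference between KD and control clones cannot be told apart from the knockdown itself.

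Txnip and the Arrdc genes encode alpha-arrestins, adaptor proteins that bring NEDD4-family ubiquitin ligases to membrane proteins and so direct their endocytosis and degradation. TXNIP protein also binds reduced thioredoxin, and it removes the glucose transporters GLUT1 and GLUT4 from the cell surface. Thioredoxin reductase uses NADPH to keep thioredoxin reduced, and thioredoxin in turn passes electrons to peroxiredoxins and to ribonucleotide reductase. Mondo family factors, MondoA (Mlxip) and ChREBP (Mlxipl), pair with MLX and switch on Txnip and Arrdc4 when glucose phosphates accumulate, through DNA elements made of paired E-box-like motifs.

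The promoter sequences of Txnip and Arrdc4 are shown because they are the classical targets of this glucose response and were read for its DNA motifs. RefSeq windows of 250 bases before the transcription start (GRCm38.p6) were found for all 9 members, 14 windows in all. The Txnip window lay at chr3:96557707-96557956 on the plus strand and the Arrdc4 window at chr7:68749239-68749488 on the minus strand, both written 5′ to 3′, with motif matches in capitals.
Txnip: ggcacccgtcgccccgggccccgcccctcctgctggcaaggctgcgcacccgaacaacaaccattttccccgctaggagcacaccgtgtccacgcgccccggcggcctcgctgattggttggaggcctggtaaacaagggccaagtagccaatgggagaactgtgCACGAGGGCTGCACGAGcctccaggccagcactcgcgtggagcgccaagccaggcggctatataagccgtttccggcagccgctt
Arrdc4: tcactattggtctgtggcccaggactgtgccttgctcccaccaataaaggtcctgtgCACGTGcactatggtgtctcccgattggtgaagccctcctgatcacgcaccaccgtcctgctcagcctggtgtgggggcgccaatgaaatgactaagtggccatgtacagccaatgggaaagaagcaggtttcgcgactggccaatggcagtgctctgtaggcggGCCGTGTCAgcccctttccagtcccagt

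In Txnip the capitals mark 2 copies of CACGNG separated by 5 bases, 85 to 69 bases before the start. On either strand this arrangement occurred in 15 of 32851 windows (0.046%), and among the members in Txnip alone. Only this form and spacing was searched for, so looser paired elements in Arrdc4 or other windows were not counted. The first capitals of Arrdc4 mark the E-box CACGTG, 193 to 188 bases before the start, which 6.02% of all windows contained and which also occurred in a Mlxipl window. The second capitals mark TGACNNNGC on the opposite strand, the core of the antioxidant response element bound by NRF2, present in 10.2% of windows and, among the members, also in a Txnrd1 window. Direct repeats of AGGTCA, a half-site of retinoic acid receptors, spaced by 5 bases or by 2 bases each occurred in 0.009% of windows and in none of the members' windows. Only exact copies were searched for. With so rare a match, its absence from 14 windows says little about whether these receptors bind there. These matches describe letters in a short window and not bound sites.

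Txnip fell sharply with RA in both kinds of cells. The Txnip level, as log2 array signal, was 10.27, 10.48 and 10.28 in proliferating control cells and 9.23, 9.42 and 9.26 in control cells after RA. In KD cells it was 10.57, 10.51 and 10.47 while proliferating and 9.05, 9.21 and 9.23 after RA. The 6 arrays after RA lay well below the 6 proliferating arrays, with no overlap. In control cells Txnip fell by 51.3%, a log2 change of −1.04 ± 0.08 (SE, n = 3 per group), with a limma adjusted p of 1.04e-06. In KD cells it fell by 60.9%, a log2 change of −1.35 ± 0.08, with a limma adjusted p of 1.71e-07. Among the falls of all 19938 genes these ranked 10 and 4 by size. Because RNA was taken from whole cultures, fewer cells expressing a gene and less RNA per cell cannot be told apart, here or for the genes that follow.

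The Txnip response to RA was larger by 0.31 ± 0.11 log2 units in KD cells than in control cells, but the difference did not pass the limma test (adjusted p = 0.153, unadjusted 95% confidence interval of the log2 difference −0.55 to −0.08). Differences in Txnip between KD and control cells did not pass the test. Proliferating KD cells were 0.18 ± 0.08 higher (limma adjusted p = 0.0914), and KD cells after RA were 0.14 ± 0.08 lower (limma adjusted p = 0.176). In both states the arrays of KD and control cells overlapped. From lowest to highest the groups ran KD after RA, control after RA, control proliferating and KD proliferating, and a single step in that order, between the RA and the proliferating groups, was free of overlap.

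**Figure D1:**
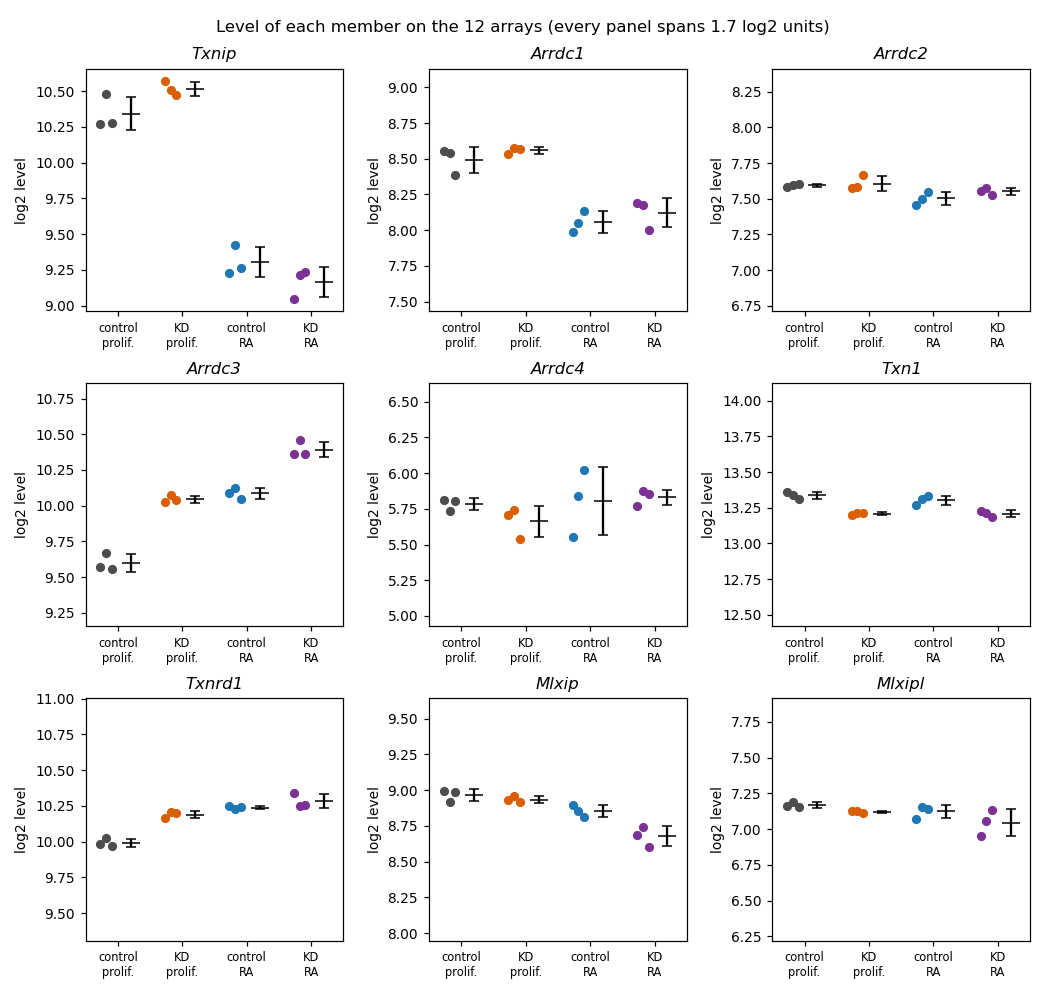
Log2 level of each of the 9 members on the 12 arrays, by group. Points are arrays and black bars are the mean ± SD of 3 arrays; every panel spans 1.7 log2 units, so the steps of Txnip and Arrdc3 can be set against the nearly level Arrdc2, Txn1 and Mlxipl.

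A gene was called when its limma adjusted p was under 0.05 and its change at least 1.3-fold, with 9969 genes tested after the less variable 50% had been left out. Txnip, Arrdc1, Arrdc3 and Mlxip were tested there, and the other 5 members had too little variation to enter, with Mlxip (interquartile range 0.143) just inside the limit of 0.137 and Txnrd1 (0.119) the nearest outside. Those 5 were fitted with all 19938 genes instead. With RA, 1 of 9 members rose and 2 fell in control cells, against 5.58% and 3.76% of all genes tested. In KD cells 0 rose and 2 fell, against 5.37% and 4.57%. Between KD and control cells, 1 member was higher and 0 lower while proliferating, against 3.96% and 3% of the genes tested. After RA 0 were called, against 3.71% and 4% of the genes tested. None was called for the interaction (how far the response to RA in KD cells exceeded the response in control cells). For it 0.492% of the genes tested were called higher and 0.752% lower. All these shares are over the 9969 genes tested, which left out 5 of the 9 members. Over all 19938 genes, fitted without the filter, 927 were called for RA in control cells and 990 in KD cells. Between KD and control cells 692 were called while proliferating and 771 after RA, and 93 were called for the interaction. Centring each array on its median shifts the balance of all genes, from 48.1% to 34.0% of calls being higher for KD against control after RA and from 39.5% to 24.5% for the interaction, and changed no call of a member.

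**Figure D2:**
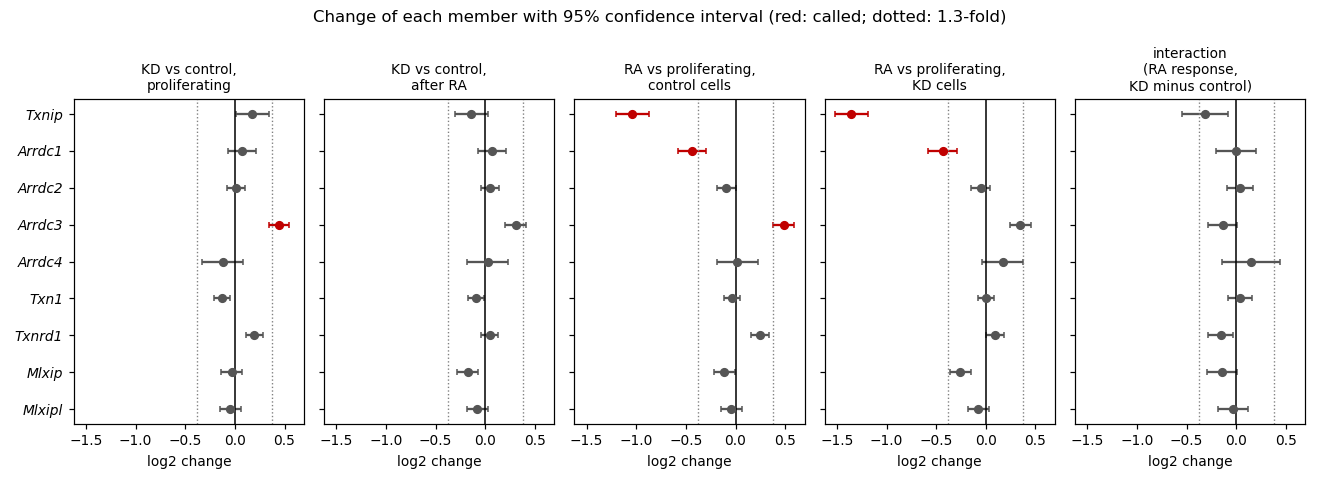
Log2 change of each member in the 5 comparisons, with its 95% confidence interval from the limma fit. Red points are called changes and dotted lines mark 1.3-fold; Txnip and Arrdc1 lie to the left in both RA panels, and Arrdc3 is red for RA in control cells and for KD in proliferating cells.

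Arrdc1, whose product recruits ubiquitin ligases at the plasma membrane and takes part in the release of small vesicles, fell with RA alongside Txnip. Its log2 level was 8.55, 8.54 and 8.39 in proliferating control cells and 7.98, 8.05 and 8.13 after RA. In KD cells the values were 8.53, 8.58 and 8.57, and then 8.19, 8.17 and 8.00. No array after RA reached a proliferating one. Arrdc1 fell by 26.0% in control cells (log2 change −0.43 ± 0.06, limma adjusted p = 0.000281). It fell by 26.1% in KD cells (−0.44 ± 0.06, limma adjusted p = 0.000265), a change that narrowly missed the fold limit, at −0.38, when the third KD array after RA was left out. KD and control arrays overlapped in both states, and the log2 difference was 0.07 in each.

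Arrdc3, an alpha-arrestin known for promoting degradation of beta-adrenergic receptors and of integrin beta 4, moved the opposite way. Its log2 level was 9.57, 9.67 and 9.56 in proliferating control cells and 10.09, 10.13 and 10.04 in control cells after RA. KD cells began higher, at 10.02, 10.07 and 10.04, and reached 10.36, 10.46 and 10.36 after RA. Proliferating KD cells and RA-treated control cells thus overlapped, below them lay the proliferating control cells and above them the KD cells after RA. RA raised Arrdc3 in control cells by 40.0% (log2 change 0.48 ± 0.05, limma adjusted p = 1.17e-05). KD cells were higher than control cells by 36.0% while proliferating (log2 change 0.44 ± 0.05, limma adjusted p = 5.15e-05).

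The other Arrdc3 differences had the same sign but were under 1.3-fold. In KD cells the log2 difference between RA and proliferating was 0.35 ± 0.05 (limma adjusted p = 0.000157), and after RA the difference between KD and control was 0.31 ± 0.05 (limma adjusted p = 0.000502). In both, the arrays of the compared groups did not overlap. The interaction, −0.14 ± 0.07, did not pass the test (limma adjusted p = 0.327).

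The genes around Arrdc3 on chromosome 13 were also higher in KD cells. Among the 25 protein-coding genes on each side, Exoc3 to Zfyve16 in RefSeq order, the median log2 difference between KD and control was 0.20 while proliferating. Of these 50 neighbours 74% were above 0, 14 were called higher and 10 exceeded Arrdc3. After RA their median was 0.14, with 12 called higher and 18 exceeding Arrdc3. These medians were above those of 99.7% and 99.3% of all windows of this size along the genome. RA did not shift the neighbours in this way: their medians were −0.02 in control and −0.03 in KD cells, and 0 and 2 of the 50 exceeded Arrdc3. The KD difference of Arrdc3 was thus seen in many of its neighbours, and its RA change was not. Whether the position of the gene has a part in the KD difference was not tested.

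**Figure D3:**
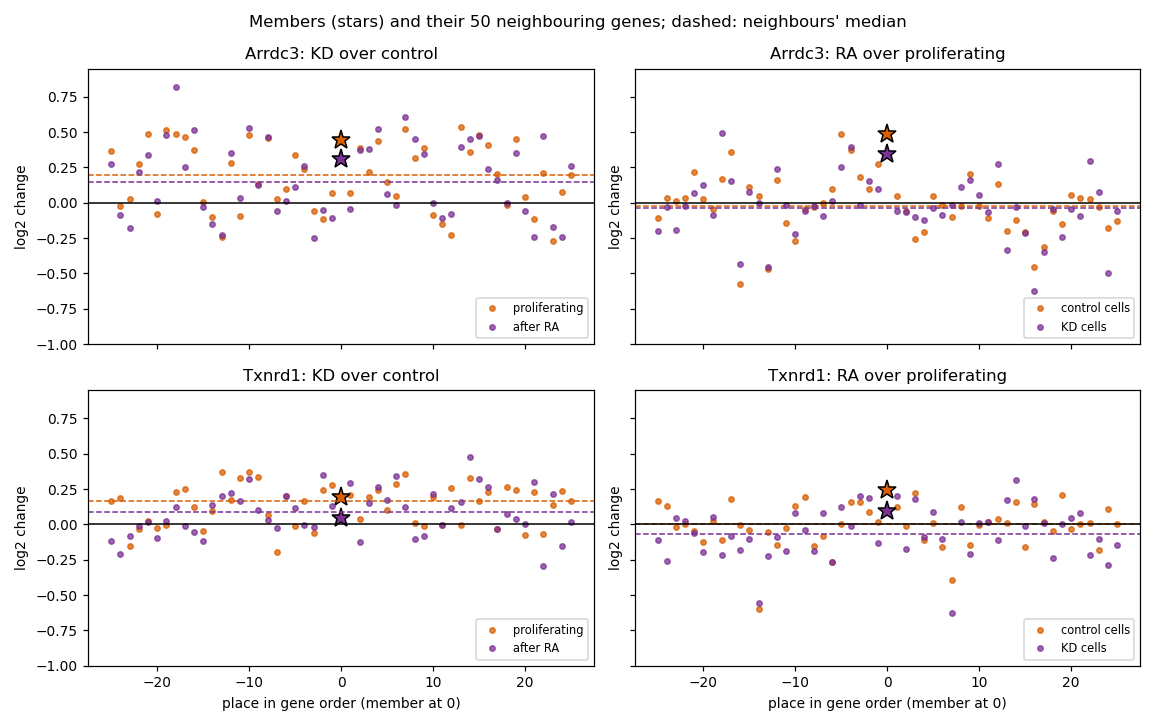
Log2 changes of Arrdc3 (top) and Txnrd1 (bottom), as stars, and of the 25 genes to each side in gene order, as dots, for KD over control (left) and RA over proliferating (right). Dashed lines are the neighbours' medians, which for Arrdc3 stand at 0.20 and 0.14 for KD and close to 0 for RA.

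Arrdc2 and Arrdc4 passed no test. Arrdc2, a less studied alpha-arrestin, stayed between 7.46 and 7.66 on all arrays, and its largest log2 difference was −0.09 for RA in control cells (limma adjusted p = 0.181, 95% confidence interval −0.18 to 0.00). Arrdc4, which like Txnip restrains glucose uptake and is a MondoA target, had log2 levels of 5.81, 5.74 and 5.81 in proliferating control cells and 5.55, 5.84 and 6.02 after RA. In KD cells it was 5.71, 5.74 and 5.54 and then 5.77, 5.87 and 5.85. Its 3 control arrays after RA spread over the range of all but 1 of the others. The log2 difference with RA was 0.02 ± 0.10 in control cells (limma adjusted p = 0.938, 95% confidence interval −0.19 to 0.22) and 0.17 ± 0.10 in KD cells (limma adjusted p = 0.267, interval −0.04 to 0.37). The signal of Arrdc4 was low, above that of 19.2% of genes, below the median of the glial and of the immune and endothelial markers, so this probe set may not be able to show a fall and the intervals do not bound one.

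Txn1, the cytosolic thioredoxin that TXNIP binds, was among the strongest signals on the arrays, above 99.9% of genes, and moved little. Its log2 level was 13.36, 13.34 and 13.31 in proliferating control cells and 13.20, 13.21 and 13.21 in proliferating KD cells. After RA it was 13.27, 13.31 and 13.33 in control and 13.23, 13.21 and 13.18 in KD cells. KD arrays lay below control arrays in each state without overlap, by 0.13 ± 0.04 (limma adjusted p = 0.0326) and 0.09 ± 0.04 (limma adjusted p = 0.114), both under the fold limit. RA made a log2 difference of −0.04 in control and 0.00 in KD cells, with arrays overlapping.

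Txnrd1, the reductase that recharges thioredoxin and a known NRF2 target, differed in the opposite sense. Its log2 level was 9.98, 10.02 and 9.97 in proliferating control cells and 10.25, 10.23 and 10.24 after RA. In KD cells it was 10.16, 10.21 and 10.20 and then 10.34, 10.25 and 10.26. Proliferating control cells stood lowest, apart from the other groups. With RA, control cells were higher by 0.25 ± 0.04 (limma adjusted p = 0.000951), and proliferating KD cells exceeded control cells by 0.20 ± 0.04 (limma adjusted p = 0.00482), both below 1.3-fold. In KD cells the RA difference was 0.09 ± 0.04 (limma adjusted p = 0.141), and the interaction was −0.15 ± 0.06 (limma adjusted p = 0.235). On chromosome 10 the 50 neighbours of Txnrd1, Fzr1 to Timp3, had a median KD difference of 0.17 while proliferating, close to that of Txnrd1, and 21 of them exceeded it. That median was at percentile 99.1 of all windows. For RA in control cells the neighbours' median was 0.00 and 0 of 50 exceeded Txnrd1.

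The RA falls of Txnip and Arrdc1 were larger than those of any of their 50 neighbours, in both kinds of cells. The neighbours of Txnip on chromosome 3 had median log2 changes with RA of −0.03 in control and −0.06 in KD cells, with 38% and 30% of them above 0, and 2 were called lower in control cells and 0 in KD cells. Small as they were, these medians stood low among all windows, at percentiles 4.68 and 9.08. The medians around Arrdc1 were 0.02 and 0.01.

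Mlxip, encoding MondoA, the main inducer of Txnip and Arrdc4 by glucose in many cells, was lowest in KD cells after RA. Its log2 level was 8.99, 8.91 and 8.99 in proliferating control, 8.93, 8.96 and 8.92 in proliferating KD, 8.90, 8.85 and 8.81 in control cells after RA and 8.69, 8.74 and 8.60 in KD cells after RA. The last group did not overlap with any other. In KD cells the log2 difference with RA was −0.26 ± 0.05 (limma adjusted p = 0.0013), against −0.11 ± 0.05 in control cells (limma adjusted p = 0.0968). After RA, KD cells were 0.18 ± 0.05 lower than control cells (limma adjusted p = 0.0132). None reached 1.3-fold, and the interaction, −0.14 ± 0.07, did not pass (limma adjusted p = 0.298). The 50 neighbours of Mlxip on chromosome 5 were also low in KD cells after RA, with a median log2 difference of −0.10. Of them 22% were above 0, and the window percentile was 5.92. While proliferating their median was about as low, at −0.08 (percentile 4.18), although Mlxip itself differed by −0.03 (limma adjusted p = 0.668). Mlxipl, encoding ChREBP, best known in liver and fat, stayed between 6.95 and 7.19, and none of its differences passed a test, the largest being −0.08 ± 0.05 for KD after RA (limma adjusted p = 0.295).

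Across the 9 genes, arrays of the compared groups did not overlap for 4 members between KD and control cells while proliferating and for 4 after RA, against 38.7% and 34% of all genes. With RA the arrays were apart for 6 members in control and 6 in KD cells, against 33.5% and 34.7%. The median log2 change of the members with RA was −0.04 in control and −0.05 in KD cells, against 0.00 and −0.01 over all genes.

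Related genes of the same pathways were counted from 9 lists, which held 115 measured genes, 63 of them past the variance filter. With RA, 3 rose and 3 fell in control cells, where 5.58% and 3.76% of all genes past the filter were called. In KD cells 3 rose and 6 fell, against 5.37% and 4.57% of all genes past the filter. Between KD and control, 1 was higher and 4 lower while proliferating, against 3.96% and 3% of all genes past the filter. After RA 0 were higher and 5 lower, against 3.71% and 4%. Counts this small do not set the lists apart from other genes. The list medians lay between −0.14 and 0.10 for RA, and between −0.13 and 0.06 for KD. None of 8 other genes of the arrestin fold, which were Arrdc5, the arrestins and the Vps26 genes, was called in any of the 4 comparisons. The same held for 11 NEDD4-family ligases and adaptors. With 6 and 7 genes of these lists past the filter, few calls could arise at these shares.

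Of 13 measured peroxiredoxins and other clients of thioredoxin, 2 rose with RA, both of them subunits of ribonucleotide reductase, which makes deoxyribonucleotides. Rrm2 rose by 1.45 ± 0.06 log2 units in control cells (limma adjusted p = 6.08e-08) and by 1.63 ± 0.06 in KD cells, and Rrm1 by 0.85 ± 0.05 and 0.80 ± 0.05. The peroxiredoxins were not called. Msrb3, a methionine sulfoxide reductase, fell in KD cells by 0.38 ± 0.05, close to the fold limit, and differed by −0.29 in control cells without being called. Srxn1, which repairs overoxidised peroxiredoxin, was lower in KD than in control cells after RA by 0.45 ± 0.04, against an uncalled log2 difference of −0.08 while proliferating. Of 20 other thioredoxin-like genes 1 fell with RA in control cells, Txndc16 (log2 change −0.47 ± 0.07), and 1 was lower in proliferating KD cells, Tmx4 (−0.42 ± 0.05), both resident in the secretory pathway. The uncalled log2 differences were −0.32 for Txndc16 with RA in KD cells and −0.17 for Tmx4 between KD and control cells after RA.

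The glutathione branch, which shares electron donors with thioredoxin, contained 1 gene of 14 that fell with RA in control cells and 2 in KD cells. Glrx, the cytosolic glutaredoxin, fell by 0.47 ± 0.05 and 0.45 ± 0.05 log2 units in control and KD cells. Gpx1, a peroxide-removing selenoenzyme, fell by 0.62 ± 0.07 in KD cells, and in control cells its log2 difference of −0.38 (limma adjusted p = 0.00166) was just under the fold limit. Glrx5, the mitochondrial glutaredoxin used in iron-sulfur cluster assembly, was lower in KD than control cells after RA (log2 difference −0.43 ± 0.05), with a difference of −0.22 while proliferating that was not called. Of 15 NRF2 targets and regulators, Slc7a11, the cystine transporter, rose with RA by 0.47 ± 0.05 in control and 0.46 ± 0.05 in KD cells. The glutathione transferase gene Gstm1 was lower in KD cells in both states (log2 differences −0.71 ± 0.07 and −0.91 ± 0.07). The quinone reductase gene Nqo1 was lower in KD cells after RA (−0.41 ± 0.12, limma adjusted p = 0.0179). While proliferating its difference of −0.37 (limma adjusted p = 0.0286) was just under the fold limit. The signal of Nqo1 was low, with group means from 5.90 to 6.34, below the median of the glial markers.

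**Figure D4:**
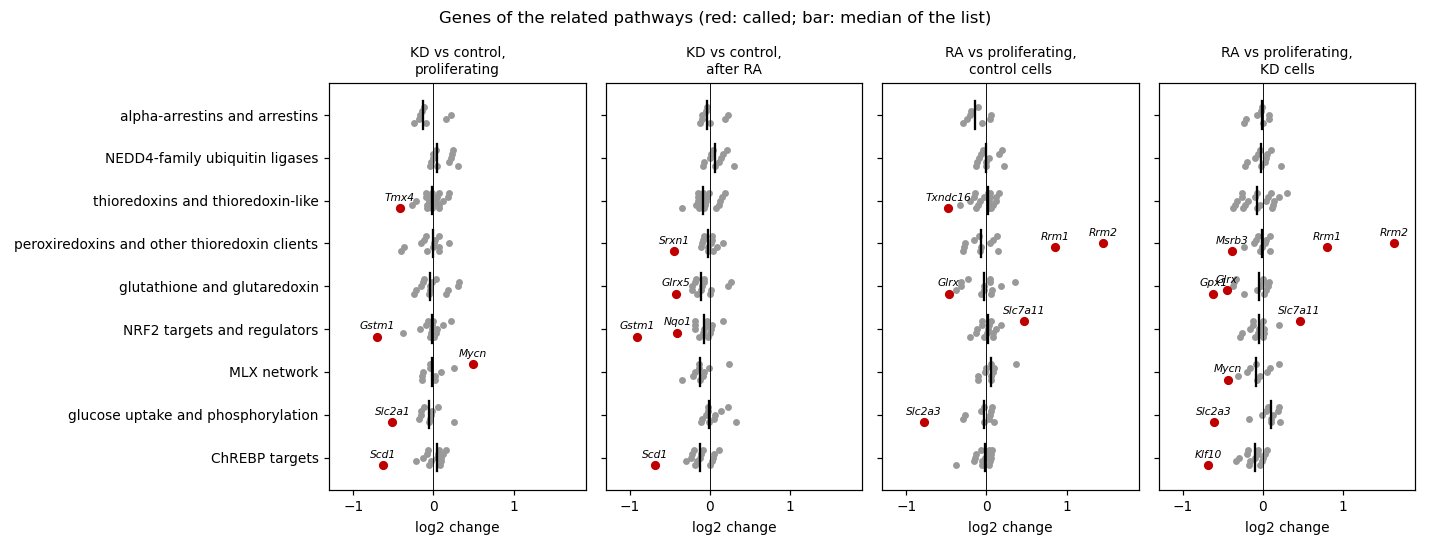
Log2 changes of the genes in the 9 pathway lists for the 4 comparisons. Red points with names are called genes, grey points are the rest and black bars are list medians; Rrm1 and Rrm2 lie far to the right with RA, and most other genes lie near 0.

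In glucose uptake, Slc2a3, which encodes the neuronal transporter GLUT3, fell with RA by 0.78 ± 0.05 log2 units in control cells and 0.61 ± 0.05 in KD cells. Slc2a1, encoding GLUT1, averaged 10.59 in proliferating control and 10.08 in proliferating KD cells, a log2 difference of −0.51 ± 0.06 (limma adjusted p = 6.86e-05), and 10.29 and 10.26 after RA. Its interaction was called, at 0.49 ± 0.08 (limma adjusted p = 0.0187). In the MLX network, whose factors compete for the same DNA elements, Mycn, the N-Myc gene, was higher in proliferating KD than control cells by 0.49 ± 0.05 and fell with RA in KD cells by 0.44 ± 0.05. Its interaction was −0.50 ± 0.07 (limma adjusted p = 0.00764). Of 15 ChREBP targets, Scd1, a fatty acid desaturase, was lower in KD cells in both states (−0.63 ± 0.12 and −0.69 ± 0.12). The signal of Scd1 was low, with group means from 5.52 to 6.34, below the median of the glial markers. Klf10, a zinc finger repressor, fell with RA in KD cells by 0.68 ± 0.04. In control cells the log2 difference of Klf10 was −0.38 (limma adjusted p = 2.34e-05), just under the fold limit, and its interaction, −0.31 (limma adjusted p = 0.0263), was also under 1.3-fold.

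Some genes followed nearly the same pattern over the 12 arrays as Txnip. Of 8501 genes ranked by Pearson correlation with it, the most alike were Ttc12 (r = 0.991), Zcchc12 (0.990), Tppp3 (0.986), Mvp, the major vault protein gene (0.985), and Plin3, which encodes a lipid droplet coat protein (0.984). The most opposite were Espl1, the separase gene (r = −0.993), Hat1, a histone acetyltransferase gene (−0.991), and Rrm2 (−0.988). All 12 arrays enter each value and they fall into an RA and a proliferating cluster, so that likeness is chiefly the step between the clusters: 77 genes had r above 0.95 and 166 below −0.95. With group means removed, r lay between 0.08 and 0.61 for the alike genes. Their steps were smaller than that of Txnip, from −0.42 for Plin3 to −0.86 for Tppp3 in control cells.

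**Figure D5:**
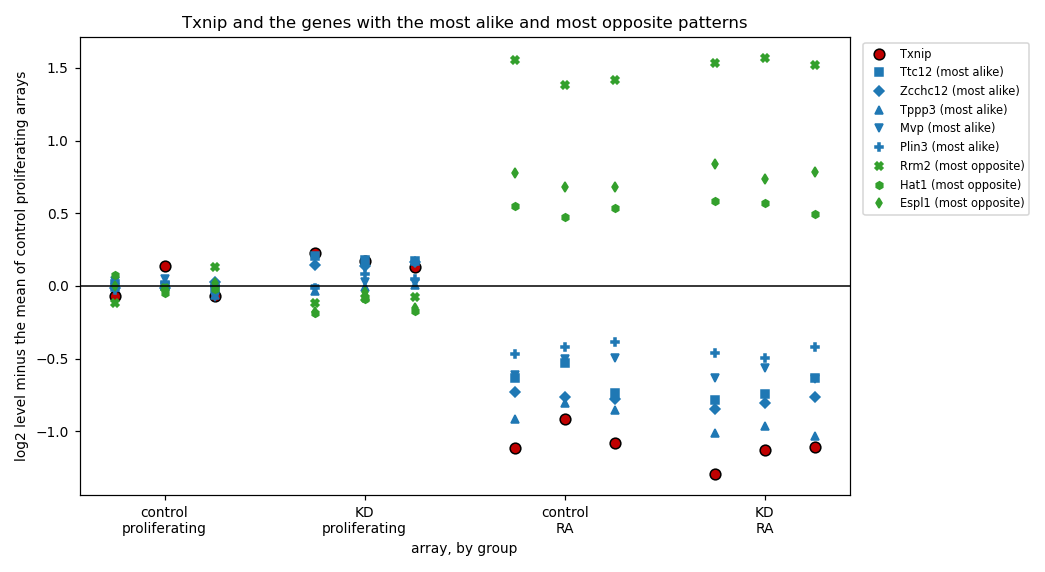
Level of Txnip, of the 5 genes with the most alike and of the 3 with the most opposite pattern, as log2 difference from the mean of the proliferating control arrays, on each of the 12 arrays. After RA the blue genes and Txnip (red) lie below 0 and the green genes above it, and Txnip lies lowest.

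The arrays correlated at 0.992 or more within groups and at 0.986 to 0.993 between groups, so these ranges overlapped, and no array stood apart. No probe set was assigned to Dali, so the knockdown cannot be checked on these arrays. The study measured reduced Dali and reduced Pou3f3 in its stable knockdown lines by quantitative PCR. On the arrays Pou3f3 averaged 7.27 in proliferating control and 7.25 in proliferating KD cells. Neuroblastoma markers were above the median gene for 13 of 14 measured, against 1 of 11 for glia and 1 of 11 for immune and endothelial cells. Of 10 fibroblast markers 5 were above it, led by Fbln1 at 11.4, while Lum was at 4.07. The median level of the neuroblastoma markers was 10.56 and 10.58 in proliferating control and KD cells and 10.10 and 10.05 after RA, and Gata2, Th, Dbh and Chgb were called lower with RA in both. Between KD and control cells, 4 of the 14 markers were called higher while proliferating: Dbh (log2 difference 0.62), Th (0.51), Isl1 (0.40) and Hand2 (0.38). After RA, Dbh was higher (0.41), and Chgb (−0.44) and Phox2a (−0.42) were lower. The fibroblast marker Pdgfrb was called lower in KD cells, with log2 differences of −0.85 while proliferating and −0.39 after RA. Its interaction, 0.45 ± 0.08, was also called. The endothelial marker Pecam1 was called lower with RA, with log2 changes of −0.63 in control and −0.53 in KD cells. The part of these marker changes in the results for Txnip and the other members was not tested.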

How the data were processed

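RNA of 12 samples was hybridised to Affymetrix Mouse Gene 1.0 ST arrays. The authors deposited log2 values, made by RMA background correction, quantile normalisation and gene-level summary, with RMA and limma, without versions, named in the submitters' processing notes. Arrays thereby share a scale that hides any change in the total RNA of a cell. Scan batches are not given, and precision is limited by the number of arrays. Among 35556 probe sets, 21789 had 1 gene symbol in the platform annotation, 1621 had several and 12146 were unnamed. The most variable probe set by interquartile range stood for each of 19938 genes, and the study's variance filter was read as dropping the lower 50%. The 4 group means were fitted to all arrays with limma 3.58.1 in R 4.3.3 (lmFit, contrasts.fit, eBayes), two-sided, with Benjamini-Hochberg adjustment over all genes tested. Members outside the filter took their values from a fit of all genes. Errors of changes are standard errors (SE).

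The members, pathway lists and comparisons were chosen with earlier results of these data known. The genes named were the members, up to 4 called genes per list and comparison, the 5 genes most like and 3 most unlike Txnip, and Pou3f3. Olfactory and vomeronasal receptor genes, small RNAs and predicted genes were left out of the likeness ranking. Promoters are RefSeq sequences of GRCm38.p6. The fit was tested on simulated data. Alternatives covered the filter, probe set choice, scaling, array weights, fitted samples, replicate block and each array left out.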

Additional observations from a re-analysis of the deposited data

How the results depend on the processing

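Of 45 member changes, 39 kept their direction in every alternative and 44 kept their side of the threshold. The exception was the fall of Arrdc1 in KD cells with RA, which was under the fold limit (−0.38) without the third KD array after RA, so that leaving out single arrays gave 1 to 2 called members in that comparison. Changes of direction occurred in values near 0. Deviations of arrays with the same replicate number correlated weakly, with r between −0.07 and 0.19, against −0.23 to 0.14 for other numbers. For RA in KD cells 0 of 3 arrays correlated best with their own number. In each other comparison 2 of 3 did, so a weak pairing may be present. The numbers were not taken as pairs. With the replicate block, 2 members remained called for RA in KD cells and 3 in control cells. For KD in proliferating cells 1 remained called, and no other call changed. The interaction count over all genes, 124, depended on single arrays: it was 41 without the third control array after RA and 46 without the second proliferating KD array. Some uncalled differences crossed the p threshold between alternatives: the adjusted p of Txn1 in proliferating KD cells reached 0.102, that of Mlxip for KD after RA 0.0604, and that of Txnip in proliferating KD cells lay between 0.0323 and 0.253.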
